A study of Homo sapiens with 9 samples.

Results

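The transcriptome of DLD1 cells depleted of Lamin A/C was set against that of untreated DLD1 cells. DLD1 is an established human colorectal cancer line. The comparison used 6 of the 9 arrays of the series, 3 from untreated control cells and 3 from cells transfected with 100 nM of an siRNA against LMNA/C and collected at 48 h (Lamin A/C Kd). The members were taken from the sample titles, and each group consisted of 3 independent biological replicates. The other 3 arrays came from cells transfected in the same way with an siRNA against Lamin B2 (Lamin B2 Kd), and were used to ask which differences also separated the knock-downs from each other. Both knock-downs were set against the same control arrays. The comparison with control and that between the knock-downs share the Lamin A/C Kd arrays, so they are not independent. A gene picked for its change against control is thereby more likely to differ between the knock-downs as well. The control cells were untreated and no array of a control siRNA was used here, so the effect of losing Lamin A/C and the effect of transfection cannot be told apart in a comparison with control. A single siRNA sequence was used for each lamin.

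Lamins A and C are splice products of LMNA and, with Lamin B1 (LMNB1) and Lamin B2 (LMNB2), form the filament meshwork beneath the inner nuclear membrane. Emerin, the LEM-domain proteins and the LAP2 proteins anchor chromatin to that meshwork, and SUN and nesprin proteins tie it through the nuclear envelope to the cytoskeleton (the LINC complex). A-type lamins are also found in the nucleoplasm, where they associate with factors of replication and transcription. Their levels track the stiffness of the nucleus and mechanical load, and mutations of LMNA cause laminopathies that include muscular dystrophies and premature ageing.

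Signal was read from single-colour 60-mer oligonucleotide arrays, and all levels are log2 processed signal minus the median of that array, so that 0 is the median probe. The median processed intensity lay between 71.1 and 82.6 on the control arrays and between 63.0 and 70.8 on the Lamin A/C Kd arrays, and 65.6 to 68.7% of the 51538 non-control spots stood well above background on these 6 arrays. No spot was saturated. The 6 arrays shared a slide, and Lamin B2 Kd replicate 3 was on another slide. Within its own group each of the 6 arrays correlated with the others at a mean r of 0.993 to 0.995 across probes.

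The markers of the epithelial label were detected: the probes of KRT18 (11.65), KRT19 (10.82), KRT8 (10.57) and EPCAM, listed under its older name TACSTD1 (9.90), stood well above background on all 6 arrays, and none of these 4 passed the test in Lamin A/C Kd (log2 fold changes from -0.11 to 0.12). KRT20 was low, at -1.40. Of 11 markers of immune, endothelial and stromal cells, 7 were tested, with control signals between -1.54 (PDGFRB) and 1.33 (CD14). Signals of different probes do not rank the genes, so neither set gives the share of a cell type. PDGFRB, a platelet-derived growth factor receptor of mesenchymal cells, alone passed and rose by 1.52 from a level that stood above background on 2 of the 3 control arrays. In bulk RNA, fewer cells of a type and less RNA per cell cannot be told apart.

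LMNA, the targeted gene, checked the labels. Its brighter probe read 8.79, 8.79 and 8.91 on the control arrays and 4.84, 5.14 and 5.03 on the Lamin A/C Kd arrays. The second probe read 7.29, 7.4 and 7.48 against 3.39, 3.87 and 3.52. The groups lay far apart on both probes. LMNA signal fell by 3.83 (SE 0.10, limma adjusted p = 7.3e-05) on the first probe and by 3.80 (SE 0.14) on the second, and the remaining signal of the first probe was 7.04% of control.

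Both B-type lamins read lower in Lamin A/C Kd, but only LMNB1 passed. LMNB1 read 4.83, 4.81 and 5.38 in control and 4.09, 4.24 and 3.72 in Lamin A/C Kd, so that every knock-down array lay below every control array. LMNB1 fell by 0.99 (SE 0.20, adjusted p = 0.015), but did not differ between the knock-downs (Lamin A/C Kd minus Lamin B2 Kd -0.35, adjusted p = 0.60). LMNB2 read 5.44, 5.51 and 5.74 against 5.11, 5.31 and 5.18, again with no overlap. Its difference of -0.36 (SE 0.11) did not pass (adjusted p = 0.060). In Lamin B2 Kd LMNB2 was lower than in Lamin A/C Kd by 1.96 (adjusted p = 0.00021).

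**Figure D1:**
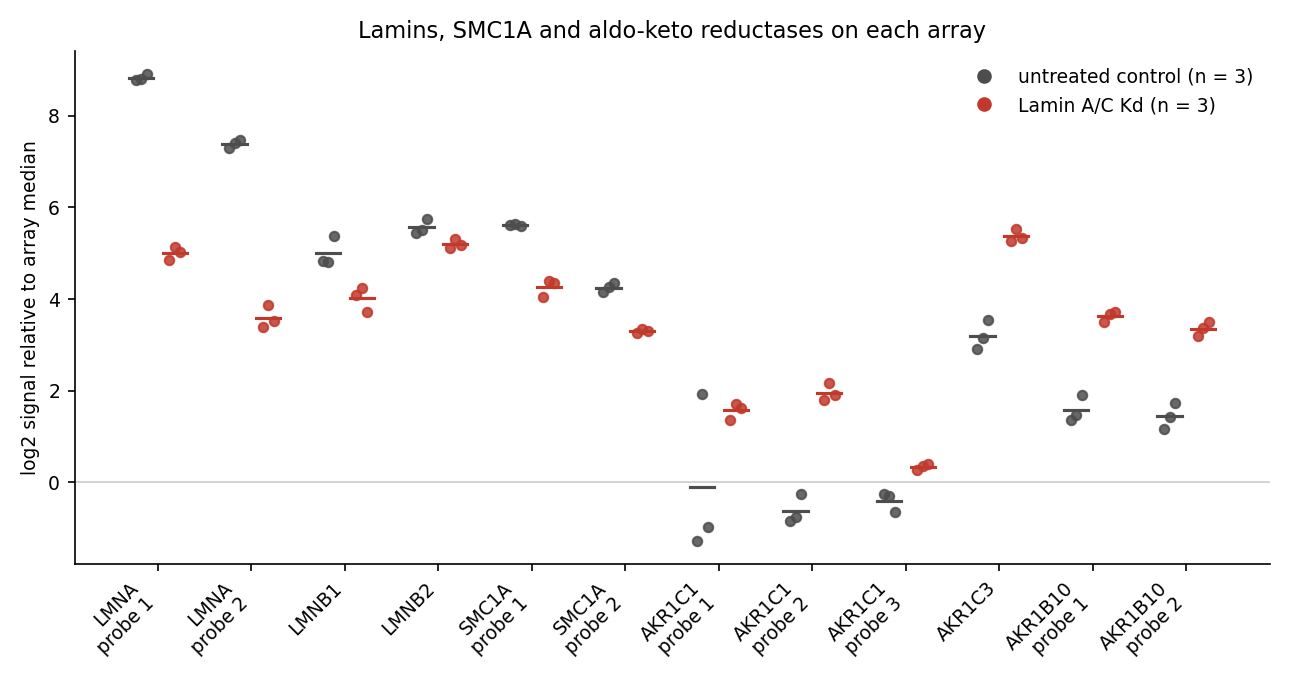
Log2 signal relative to the array median (y axis) of each of the 3 control arrays (grey) and 3 Lamin A/C Kd arrays (red) for the lamins, SMC1A and 3 aldo-keto reductases; bars are group means and probe 1 is the brightest of a gene. LMNA drops on both probes, AKR1C3 and AKR1B10 rise on every array, and control replicate 2 stands apart on AKR1C1 probe 1.

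Of 21868 gene names with a detected probe, 1607 (7.35%) rose and 2804 (12.8%) fell at an adjusted p under 0.05, and the median over all of them was -0.04. At the criterion of a 2-fold change with an unadjusted p under 0.05, 206 (0.942%) rose and 286 (1.31%) fell. The balance of directions depended on scaling: 36.4% of the genes that passed rose after the shift by the 50th percentile, against 51.7% after a shift by the 75th percentile, 51.4% after quantile normalization and 23.4% after normexp background correction. Leaving out control replicate 1, 2 or 3 left 833, 990 or 941 rises and 1553, 1790 or 1288 falls. Without Lamin A/C Kd replicate 1 there were 1746 falls, and without Lamin A/C Kd replicate 3 there were 1032 rises.

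Many genes of the NRF2 programme rose. NRF2 (NFE2L2) is a transcription factor held in check by KEAP1 and released by oxidants and electrophiles, and its targets make glutathione, reduce quinones and carbonyls, and store iron. Of 46 listed genes 44 were tested, and 23 rose and 1 fell, with a median of 0.34 against -0.04 over all genes. The share that rose was 52.3%, beside 7.35% of all genes. NFE2L2 itself differed by 0.00 (SE 0.12, adjusted p = 0.99) and KEAP1 by -0.25 (adjusted p = 0.24), and neither passed.

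The aldo-keto reductases, which reduce carbonyls and steroids with NADPH, led the list. AKR1C3 read 2.90, 3.15 and 3.55 in control and 5.27, 5.54 and 5.34 in Lamin A/C Kd. AKR1C3 rose 4.55-fold (log2 fold change 2.18, SE 0.17, adjusted p = 0.0010). AKR1B10 read 1.35, 1.47 and 1.90 against 3.50, 3.67 and 3.72, and rose 4.16-fold (2.06, SE 0.16, adjusted p = 0.00098), with 1.92 on its second probe. AKR1B15, listed as tcag7.1260, rose by 1.48 and AKR1B1 by 0.56. Of 10 aldo-keto reductases tested, 4 rose (40%, beside 7.35% of all genes) and none fell (beside 12.8%).

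AKR1C1 depended on the probe. Its brightest probe read -1.27, 1.94 and -0.97 in control and 1.37, 1.72 and 1.62 in Lamin A/C Kd, and the difference of 1.67 (SE 0.77) did not pass (adjusted p = 0.17). The control arrays disagreed there, with replicate 2 above all 3 knock-down arrays. The second probe read -0.85, -0.76 and -0.26 against 1.79, 2.16 and 1.91 and rose by 2.58 (SE 0.18, adjusted p = 0.00073). The third rose by 0.75 (SE 0.12, adjusted p = 0.0083). AKR1C genes are near-identical copies, and the probes are shown for that reason: capitals mark the bases that are identical where the AKR1C1 and AKR1C3 oligonucleotides align, 37 of the 41 bases that overlap. How far each probe also captures the other transcript was not tested.
AKR1C1, second probe: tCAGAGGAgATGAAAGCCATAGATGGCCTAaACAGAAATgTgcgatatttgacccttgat
AKR1C3: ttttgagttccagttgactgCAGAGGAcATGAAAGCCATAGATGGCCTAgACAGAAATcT
AKR1C1, the third probe: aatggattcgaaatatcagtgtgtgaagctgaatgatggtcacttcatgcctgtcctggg

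GPX2, the glutathione peroxidase of the gut epithelium, read 0.19, 0.37 and 0.41 in control and 1.82, 2.28 and 2.07 in Lamin A/C Kd, and rose 3.32-fold (1.73, SE 0.14, adjusted p = 0.0010). NQO1, a quinone reductase, read 3.89, 3.82 and 4.10 against 5.09, 5.19 and 5.18, and rose 2.32-fold. The groups were well separated for both genes. The other rises included GCLC (0.69) and GCLM (0.57), the subunits of the enzyme that starts glutathione synthesis, the cystine transporter SLC7A11 (0.96), glutathione reductase GSR (0.33), the ferritin chains FTL (0.98) and FTH1 (0.39), haem oxygenase HMOX1 (0.90), sulfiredoxin SRXN1 (0.57), the conjugating enzyme UGT1A6 (0.66) and the export pump ABCC3 (0.96). OSGIN1 (1.48), SQSTM1 (0.82) and PIR (0.54) also rose. TXNRD1 (-0.12, adjusted p = 0.43) did not pass, and the small MAF factor MAFF fell by 0.42.

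Many antioxidant rises also separated the knock-downs. Of the 23 genes that rose, 15 were higher in Lamin A/C Kd than in Lamin B2 Kd at an adjusted p under 0.05 (17 without Lamin B2 Kd replicate 3), and over all 44 tested 17 were higher and 1 was lower. Across all genes 11.2% were higher in Lamin A/C Kd than in Lamin B2 Kd and 4.28% were lower. AKR1C3 was higher by 2.01 (adjusted p = 0.00043), AKR1B10 by 1.57, OSGIN1 by 1.54 and GPX2 by 1.39. HMOX1 (0.93, adjusted p = 0.13) and GSTA4 (0.89, adjusted p = 0.14) did not pass that test. Over the alternatives the list kept between 15 and 29 rises and a median between 0.24 and 0.44, with 15 when all 9 arrays were fitted.

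**Figure D2:**
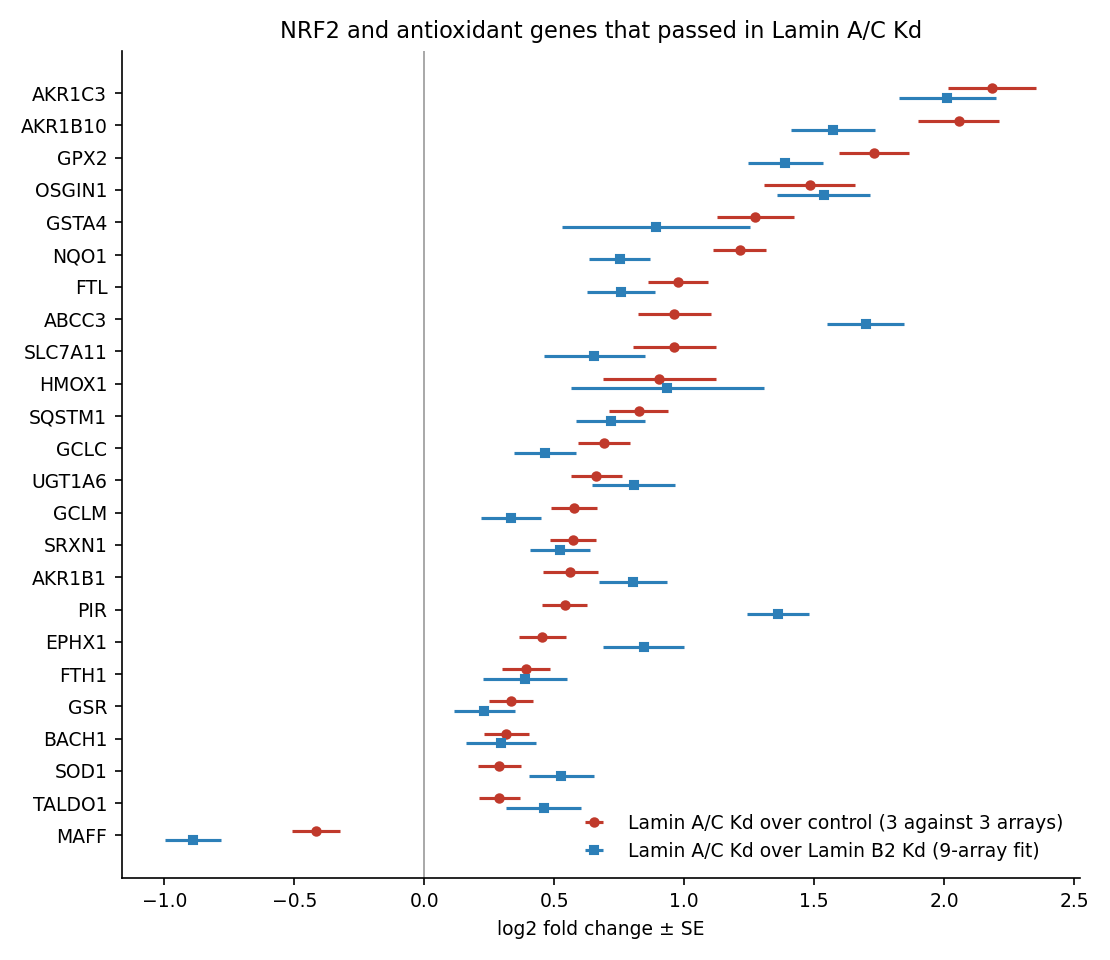
Log2 fold change ± SE (x axis) of the 24 NRF2 and antioxidant genes that passed, for Lamin A/C Kd over control (red circles) and Lamin A/C Kd over Lamin B2 Kd (blue squares). From AKR1C3 at 2.18 down to TALDO1 at 0.29 both estimates are above 0, and MAFF is below 0 in both.

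The antioxidant response element, to which NRF2 binds with small MAF proteins, has the core TGACNNNGC. It was searched on either strand in the RefSeq promoters (GRCh38.p14, 250 bases before to 50 after the start). This search was exploratory: 7 strings were tried after the values of the lists had been seen, and the 4 given here were kept. It occurred in 16 of the 50 promoters that matched a tested member of the list (32%), and in 7 of 27 (25.9%) for members that passed, against 13.3% of 35116 promoters. It was also found in 12 of 51 mitotic promoters (23.5%) and 12 of 59 replication promoters (20.3%), lists whose genes fell, and in those of TXNRD1 and KEAP1, which did not pass. The stretches before the starts of GPX2 and GCLM, chosen after the matches were seen, are shown, since these genes rose and hold the element, with the element in capitals and read here on the opposite strand. It begins 122 bases before the start of GPX2 (chr14:64942809-64942917, minus strand) and 34 before that of GCLM (chr1:93909431-93909514, minus strand).
GPX2: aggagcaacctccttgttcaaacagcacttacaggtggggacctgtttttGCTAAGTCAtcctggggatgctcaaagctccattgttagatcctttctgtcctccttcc
GCLM: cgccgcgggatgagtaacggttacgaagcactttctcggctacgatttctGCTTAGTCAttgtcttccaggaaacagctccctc

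Many genes of cell division fell, most by less than 2-fold. Of 51 mitotic genes tested, 36 fell and none rose (median -0.45), and of 54 replication genes 33 fell and none rose (median -0.41). The shares of 70.6% and 61.1% compare with 12.8% of all genes. All 51 mitotic genes had a log2 fold change below 0 (50 after quantile normalization), and the knock-down and control arrays did not overlap for 49 of them, beside 40.9% of all genes. In the alternatives the mitotic list kept between 14 and 47 falls, and the replication list between 16 and 42. Without control replicate 3, 14 mitotic and 17 replication genes fell. With control replicate 1 left out, 20 mitotic and 21 replication genes fell.

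HMMR, a spindle and hyaluronan-binding protein, moved furthest in the mitotic list. HMMR read 6.84, 6.88 and 6.99 in control and 5.43, 5.36 and 5.61 in Lamin A/C Kd, and fell by 1.44 (SE 0.10, adjusted p = 0.00078). It was also lower than in Lamin B2 Kd, by 0.96 (adjusted p = 0.0014). The chromokinesin KIF4A fell by 0.87, the kinases AURKA by 0.74 and PLK1 by 0.46, the kinetochore motor CENPE by 0.71, the transcription factor FOXM1, which drives the mitotic genes, by 0.62, and the proliferation marker MKI67 by 0.57. Cyclin B1 (CCNB1) and CDK1, listed as CDC2, fell by 0.36 and 0.56.

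MCM6, a subunit of the replicative helicase, read 8.62, 8.55 and 8.69 in control and 7.18, 7.46 and 7.56 in Lamin A/C Kd. MCM6 fell by 1.22 (SE 0.12, adjusted p = 0.0020) and was lower than in Lamin B2 Kd by 1.09 (adjusted p = 0.0011). Among the other helicase subunits MCM4 fell by 0.80, MCM7 by 0.48 and MCM3 by 0.46, while MCM2 (-0.54, adjusted p = 0.071) and MCM5 (-0.36, adjusted p = 0.15) did not pass. The helicase activator CDC45, listed as CDC45L, fell by 0.83, thymidylate synthase TYMS by 0.61 and the sliding clamp PCNA by 0.48.

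How many of these falls separated the knock-downs depended on Lamin B2 Kd replicate 3, the array on the other slide. Of the 36 mitotic genes that fell 7 were lower in Lamin A/C Kd than in Lamin B2 Kd with it and 18 without it, and of the 33 replication genes 6 with it and 12 without it. With it, 7 of all 51 mitotic genes tested were lower and 2 higher, and 6 of all 54 replication genes were lower and 3 higher. Across all genes 4.28% were lower and 11.2% higher in Lamin A/C Kd with it. Over all genes the knock-downs differed at 3392 with it and at 4207 without it. The list medians in Lamin B2 Kd against the same controls were -0.25 and -0.29, beside -0.15 over all genes. KIF2C, a microtubule depolymerase, fell by 0.35 yet was higher than in Lamin B2 Kd by 0.72 (adjusted p = 0.0053).

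Other promoter elements were unevenly spread over these lists. The cell cycle genes homology region (CHR), TTTGAA, which recruits the DREAM and MMB complexes, occurred on either strand in 35 of 51 promoters of tested mitotic genes (68.6%) and in 2 of 59 of replication genes (3.39%), against 15.2% of all promoters. The E2F sites TTTCGCGC and TTTGGCGC occurred in 14 of the 59 replication promoters (23.7%) and in 3 of the 51 mitotic promoters (5.88%), against 1.15% of all. The stretches of HMMR (chr5:163460554-163460631, plus strand) and MCM6 (chr2:135876538-135876645, minus strand), also chosen after the matches were seen, are shown because these genes fell furthest in their lists, with the first element of each in capitals.
HMMR: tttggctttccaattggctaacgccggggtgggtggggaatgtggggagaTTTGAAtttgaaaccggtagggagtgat
MCM6: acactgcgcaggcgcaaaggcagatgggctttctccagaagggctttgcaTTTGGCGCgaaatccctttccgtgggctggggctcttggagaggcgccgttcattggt

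SMC1A, a core subunit of the cohesin ring that holds sister chromatids together, had the largest fall of the 18 cohesin genes tested. Its brighter probe read 5.61, 5.63 and 5.59 in control and 4.05, 4.40 and 4.36 in Lamin A/C Kd, a fall of 1.34 (SE 0.11, adjusted p = 0.0014) to 39.5% of control. The second probe fell by 0.94. SMC1A was lower than in Lamin B2 Kd by 1.01 (adjusted p = 0.0042). Its partner SMC3 fell by 0.34, while RAD21 (-0.23, adjusted p = 0.14) and STAG2 (-0.11, adjusted p = 0.51) did not pass. Of 18 cohesin genes 8 fell (44.4%, beside 12.8% of all genes, and 5 when any 1 control array, or either of Lamin A/C Kd replicates 1 and 2, was left out), and of 8 condensin genes, whose product compacts mitotic chromosomes, 6 fell (4 without control replicate 1 or 3). Over all the alternatives the cohesin falls ran from 3 to 12. NCAPD3 fell by 1.01 and SMC4 by 0.82, and both were lower than in Lamin B2 Kd (adjusted p = 0.0019 and 0.0049).

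Of 53 DNA repair genes 23 fell and none rose, with a median of -0.30 and 9 members above 0. The share that fell was 43.4%, beside 12.8% of all genes. LIG4, the ligase of non-homologous end joining, fell by 1.18, and RAD54L, BRCA2 and BRCA1 of homologous recombination fell by 0.74, 0.68 and 0.61. Without control replicate 3 the list kept 11 falls, and it kept 14 without replicate 1 of either group.

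Of 31 lamina and nuclear envelope genes tested 15 fell, counting the targeted LMNA itself, and 1 rose, with a median of -0.36 and 7 members above 0. The share that fell was 48.4%, beside 12.8% of all genes, and the count was 4 when all 9 arrays were fitted. Emerin (EMD), an inner membrane protein that binds Lamin A, read 4.80, 4.88 and 5.0 in control and 3.62, 3.95 and 3.82 in Lamin A/C Kd, with no overlap. EMD fell by 1.09 (SE 0.11, adjusted p = 0.0023). Plectin, listed as PLEC1, fell by 1.01, the SUN proteins SUN2 (UNC84B) and SUN1 (UNC84A) by 0.89 and 0.58, NEMP1 (KIAA0286) by 0.79, LAP2 (TMPO) by 0.61 and BANF1, the barrier-to-autointegration factor, by 0.39. TMEM43, which encodes the inner membrane protein LUMA, rose by 0.49. The lamin B receptor LBR differed by -0.33 and did not pass (adjusted p = 0.055).

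LMNA and SUN1 (by 0.41, adjusted p = 0.035) were the 2 of these falls that were also lower than in Lamin B2 Kd, a count of 6 once replicate 3 of the latter was left out. Over all 31 tested 2 were lower and 2 higher, beside 4.28% and 11.2% of all genes. EMD differed by -0.21 (adjusted p = 0.68). The count of falls was between 7 and 9 without any 1 control array or without Lamin A/C Kd replicate 1. Among 60 nuclear pore and transport genes 17 fell (28.3%, beside 12.8% of all genes), including the export cofactor NXT1 (0.98), the Ran exchange factor RCC1 (0.77) and the pore protein NUP98 (0.61). The import receptor IPO7 rose by 1.09. That count was 9, 11 and 7 without control replicates 1, 2 and 3, and 11 without Lamin A/C Kd replicate 1.

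**Figure D3:**
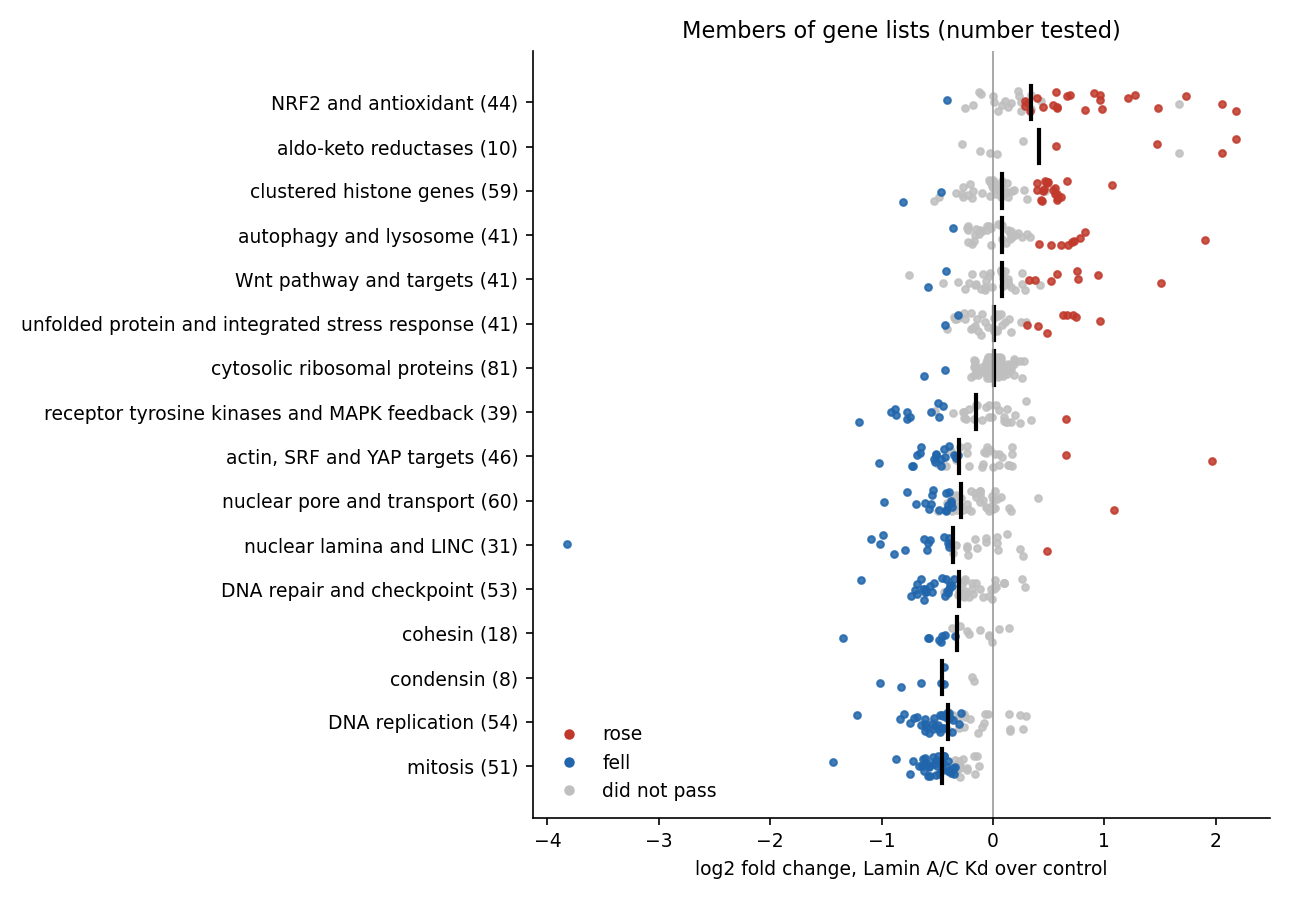
Log2 fold change in Lamin A/C Kd over control (x axis) of every tested member of 16 gene lists (number tested in brackets), red where it rose, blue where it fell and grey where it did not pass; black ticks are list medians. All mitotic genes lie below 0, the NRF2 list lies mostly above 0, and ribosomal protein genes centre on 0.01.

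Many targets of mechanical signalling fell. SRF and its cofactors MRTF respond to actin, and YAP with TEAD responds to stretch and cell shape. Of 46 genes on this list 19 fell and 2 rose (median -0.30), and the 41.3% that fell compare with 12.8% of all genes. CCN1, listed as CYR61, read 7.05, 7.08 and 7.20 in control and 6.21, 5.79 and 6.26 in Lamin A/C Kd, and fell by 1.02 (SE 0.14, adjusted p = 0.0049). CCN2 (CTGF) fell by 0.65, the focal adhesion protein ZYX by 0.72, EGR1 by 0.72, JUNB by 0.68, the SRF cofactor MRTFB (MKL2) by 0.65 and SRF itself by 0.33. CYR61, EGR1 and JUNB were lower than in Lamin B2 Kd (by 0.77, 0.58 and 0.68, adjusted p = 0.021, 0.010 and 0.014). Without control replicate 1 or 3 the count was 9, and it was 10 without control replicate 2, as it was without Lamin A/C Kd replicate 1.

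SMTNL2, a smoothelin-like protein, went the other way within that list. SMTNL2 read -2.29, -2.31 and -1.41 in control and -0.06, -0.24 and 0.18 in Lamin A/C Kd, and rose by 1.96 (SE 0.25, adjusted p = 0.0041), although it stood above background on 1 of the 3 control arrays. It was higher than in Lamin B2 Kd by 2.46 (adjusted p = 0.0016). The Hippo kinase LATS2 rose by 0.65.

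Among adhesion genes, the laminin receptor subunit ITGA3 read 3.06, 3.04 and 3.41 in control and 1.39, 1.80 and 1.62 in Lamin A/C Kd and fell 2.96-fold (-1.57, SE 0.15, adjusted p = 0.0019). The hemidesmosome collagen COL17A1 fell by 1.06, the laminin chain LAMA5 by 0.86 and talin (TLN1) by 0.65. LAMC1 rose by 0.75 and ITGB8 by 0.72. Of 35 integrin and matrix adhesion genes 8 fell (22.9%, beside 12.8% of all genes) and 4 rose (11.4%, beside 7.35%), a median of -0.12, with 4, 3 and 2 falls without control replicates 1, 2 and 3 and 4 without Lamin A/C Kd replicate 1. With those control replicates left out the rises were 1, 2 and 1, and 2 without Lamin A/C Kd replicate 2. ITGA3 and COL17A1 were lower than in Lamin B2 Kd (adjusted p = 0.016 and 0.0025).

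Receptor tyrosine kinase and MAPK genes gave 11 falls and 1 rise of 39 (median -0.15), and the 28.2% that fell compare with 12.8% of all genes. The ephrin receptor EPHA2 fell by 1.20, FGFR3 by 0.92 and ERBB2 by 0.56. DUSP6 and SPRED1, which ERK signalling induces and which restrain it in turn, fell by 0.87 and 0.88, and SPRED2 and ETV4 by 0.49 and 0.77. Related genes of the list did not pass: SPRY1 (0.05), SPRY2 (-0.01), SPRY4 (-0.17), DUSP4 (0.13), DUSP5 (-0.06) and ETV5 (0.34). DUSP6 read 7.36, 7.50 and 7.33 against 6.49, 6.51 and 6.59, and was lower than in Lamin B2 Kd by 1.25 (adjusted p = 0.00077). BRAF fell by 0.45. There were 6 falls without control replicate 3.

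Of 59 clustered histone genes tested 19 rose and 2 fell, with a median of 0.08 and 20 members below 0 (32.2% rose, beside 7.35% of all genes). HIST1H2BK rose by 1.07, from 5.81, 4.82 and 6.01 to 6.46, 6.60 and 6.80, HIST1H2BH by 0.66 (with no value on Lamin A/C Kd replicate 1), HIST1H2BI by 0.61 and the linker histone HIST1H1C by 0.57. HIST1H2AI fell by 0.81 and HIST1H2AB by 0.47. Of the 19 rises 18 were also higher than in Lamin B2 Kd (17 when replicate 3 of the latter was left out). Over all 59 tested 19 were higher and none was lower, beside 11.2% and 4.28% of all genes. The list median in Lamin B2 Kd over control was -0.23, beside -0.15 over all genes. Histone genes of a class are near-identical, so these probes may read the same transcripts and are not separate counts, and 14 of the 19 were H2B genes. Without control replicate 1 there were 10 rises and without control replicate 3 there were 12. HIST1H2BK did not pass in 8 of 16 alternatives.

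Autophagy and lysosome genes gave 9 rises (22%, beside 7.35% of all genes) and 1 fall of 41. The cathepsin CTSZ read -0.64, -0.63 and -0.63 in control and 1.30, 0.16 and 2.37 in Lamin A/C Kd, a rise of 1.91 (SE 0.48, adjusted p = 0.033) with a wide spread among the knock-down arrays, and it did not pass in 6 of 16 alternatives. The autophagy receptor SQSTM1 rose by 0.82, GABARAPL1 by 0.78, the initiating kinase ULK1 by 0.73 and the protease TPP1 by 0.67. All of these but CTSZ were higher than in Lamin B2 Kd. Without control replicate 1 or 3 the list kept 6 rises, and over all the alternatives between 4 and 13.

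Of 41 unfolded protein and integrated stress response genes 8 rose (19.5%, beside 7.35% of all genes) and 2 fell. The median of the list was 0.01, with 22 members above 0 and 19 below. The rises included the stress sensor SESN2 (0.74), DDIT4 (0.72) and XBP1 (0.67), with 5 rises without control replicate 1 or 3. ATF4 (0.11), DDIT3 (0.04), ASNS (0.00) and HSPA5 (0.14), also on the list, did not pass. The Wnt list gave the same counts, 8 rises and 2 falls of 41. WNT5A, a non-canonical ligand, read 1.52, 1.55 and 1.97 against 3.21, 3.21 and 3.16, rose by 1.51 (SE 0.13, adjusted p = 0.0015) and was higher than in Lamin B2 Kd by 1.33. WNT11 rose by 0.94, EPHB2 by 0.77 and MYC by 0.52, while CCND1, which encodes cyclin D1, fell by 0.42. Without control replicate 1 there were 5 Wnt rises, and over all the alternatives between 4 and 13. Of 42 interferon genes 6 rose (14.3%, beside 7.35% of all genes), IFIT2 (0.80) among them. The 5 that fell, TAP1 (0.84) among them, were 11.9% of the list, close to the 12.8% of all genes. There were 2 rises without control replicate 1 or 2, and 3 without any 1 Lamin A/C Kd array. Cytosolic ribosomal protein genes changed little, with 2 falls of 81 (2.47%, beside 12.8% of all genes) and no rise. Over the alternatives there were 0 to 7 falls and 0 to 3 rises. Their median log2 fold change was 0.01. That median was -0.08 after normexp correction and 0.09 after the 75th percentile shift. These lists are a choice from 40 made after the values were seen. Over the 24 not plotted, the medians ran from -0.24 to 0.07.

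**Figure D4:**
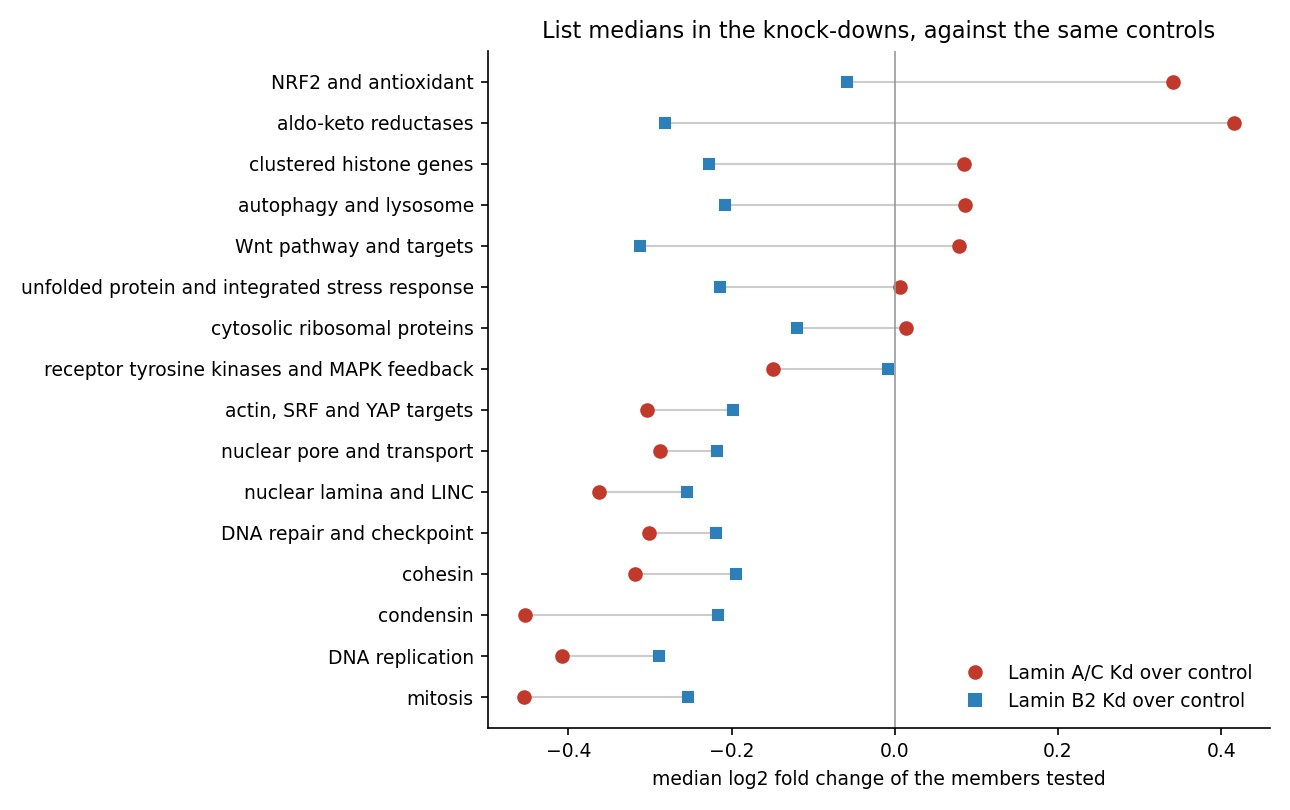
Median log2 fold change of the tested members (x axis) of 16 gene lists in Lamin A/C Kd (red circles) and Lamin B2 Kd (blue squares), each over the same 3 controls, so the pairs are not independent. The NRF2 list sits at 0.34 and -0.06, and the mitotic list at -0.45 and -0.25.

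Several of the largest rises did not pass the test between the knock-downs. HOXB8, a homeobox gene of the HOXB cluster, read 1.77, 0.73 and 0.83 in control and 3.71, 4.01 and 4.71 in Lamin A/C Kd, and rose by 3.04 (SE 0.34, adjusted p = 0.0029). MAGOH, of the exon junction complex, rose by 2.07 from 4.87, 4.88 and 4.98 to 7.31, 6.56 and 7.07. UBE2E1, a ubiquitin-conjugating enzyme, rose by 2.14 (adjusted p = 0.040), with control arrays from -0.19 to 2.02, and lost its call in 5 of 16 alternatives. The knock-downs differed by 0.84 for HOXB8 (adjusted p = 0.30), 0.24 for MAGOH (0.75) and -0.33 for UBE2E1 (0.73), and none of these passed with all 9 arrays. Without Lamin B2 Kd replicate 3, HOXB8 passed (adjusted p = 0.039).

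Other large rises separated the knock-downs. FGF20, a fibroblast growth factor, read -0.93, -0.99 and -0.81 in control and 1.01, 0.93 and 1.21 in Lamin A/C Kd, rose by 1.96 (SE 0.11, adjusted p = 0.00044) and was higher than in Lamin B2 Kd by 2.99. CABYR, a calcium-binding protein of the sperm flagellum, rose by 1.93 and was higher than in Lamin B2 Kd by 2.14. CFAP92, listed as KIAA1257, rose by 1.99 and was higher by 3.04. ANGPTL4, a secreted inhibitor of lipoprotein lipase, read 3.54, 4.42 and 4.11 against 5.95, 6.71 and 6.29, and rose by 2.29 (SE 0.26), with 1.28 between the knock-downs (adjusted p = 0.018). MANSC1 rose by 2.02 and differed by 0.85 (adjusted p = 0.073). Unnamed transcripts among the 15 largest rises were BC054888 (2.64), THC2523793 (2.31) and AK126814 (2.09). For the homeobox gene BARX2 no control array gave a signal clear of background, and the rise was at least 2.68-fold. Its probe was kept only through the knock-down arrays, and its call at the adjusted threshold was lost in 8 of 15 alternatives.

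The largest falls after LMNA were SLC25A10, of mitochondria, and TMEM14B. SLC25A10, the dicarboxylate carrier, read 4.32, 4.35 and 4.46 in control and 1.55, 2.05 and 1.75 in Lamin A/C Kd, and fell by 2.60 (SE 0.14, adjusted p = 0.00044). TMEM14B read 8.11, 8.12 and 8.10 against 5.41, 5.56 and 5.73, and fell by 2.54 (SE 0.10). Each was lower than in Lamin B2 Kd, by 2.14 and 2.36. ZC3HAV1, a zinc-finger antiviral protein, fell by 2.20 on its brightest probe and by 1.5 on another, while a further probe (-0.47) did not pass. BRCC3, a deubiquitinase that cuts K63-linked chains, fell by 1.93 and 1.43 on its probes, and APMAP, listed as C20orf3, by 1.80 and 2.22. The long non-coding RNAs UCA1 and SERTAD4-AS1, listed as C1orf133, each fell by 1.88. TCEA2, a transcription elongation factor, was at least 2.83-fold lower, and SERPINC1, antithrombin, at least 1.95-fold lower. Neither was well above background on a knock-down array. Both probes were kept only through the control arrays, so their test is not independent of that filter.

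H19, the imprinted non-coding RNA, read 6.85, 6.96 and 7.10 in control and 4.80, 5.68 and 4.67 in Lamin A/C Kd, and fell by 1.92 (SE 0.26, adjusted p = 0.0045). It did not differ between the knock-downs at the threshold (-0.83, adjusted p = 0.25). Of the 15 largest falls 5 were probes filed under different names that share 32 bases of one H19 stretch, in capitals in the first of them, so these falls are 1 transcript read 5 times. The 4 other names were n4695_u4124_M32053_H19, HsapiBC009853, HsapiCR605723 and HsapiCR600817, with falls of 1.82 to 1.87.
H19: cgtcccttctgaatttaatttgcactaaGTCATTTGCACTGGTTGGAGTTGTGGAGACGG

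Probes of a gene sometimes went different ways, which limits a value given for the gene as a whole. Of 7355 genes with several tested probes, 53 had probes that passed in opposite directions. HNRPK (HNRNPK), an RNA-binding protein, read 8.44, 8.44 and 8.51 against 7.52, 7.65 and 7.68 on its brighter probe and fell by 0.84, while its dimmer probe read 5.26, 5.15 and 5.22 against 7.51, 7.39 and 7.54 and rose by 2.27 (SE 0.09, adjusted p = 0.00021). LOC647615, annotated as similar to HNRPK, rose by 2.33 (SE 0.10) alongside the dimmer probe, from 5.14, 4.94 and 4.96 to 7.42, 7.25 and 7.36, with 0.23 between the knock-downs (adjusted p = 0.37). The 3 oligonucleotides sample different stretches and are shown so that the transcripts can be traced.
HNRPK, brighter probe: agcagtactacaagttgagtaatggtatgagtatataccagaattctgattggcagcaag
HNRPK, dimmer probe: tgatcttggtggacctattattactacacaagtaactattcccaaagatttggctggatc
LOC647615: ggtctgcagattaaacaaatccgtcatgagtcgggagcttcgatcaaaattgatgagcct

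TAF5L, a subunit of histone acetyltransferase complexes, held the largest rise of a brightest probe, 3.26 (SE 0.20, adjusted p = 0.00057), from -0.09, -0.16 and -0.45 to 3.43, 2.98 and 2.67. Its other probe, at a similar control level, differed by -0.21 (adjusted p = 0.13), and the rise did not separate the knock-downs (0.21, adjusted p = 0.76). CDC42, a small GTPase of the actin cytoskeleton, fell by 2.56 on a dimmer probe and rose by 0.88 on the dimmest, while its brightest probes differed by -0.22 and -0.25 and did not pass. ITGA2, the collagen receptor subunit, was at least 1.91-fold lower on the third probe and differed by -0.12 and -0.04 on the others. TMEM204, a claudin-like membrane protein, was at least 4.08-fold higher on its second probe and differed by -0.10 on the first. LRRC47 rose by 0.47, 0.46 and 1.63 on its 3 probes.

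**Figure D5:**
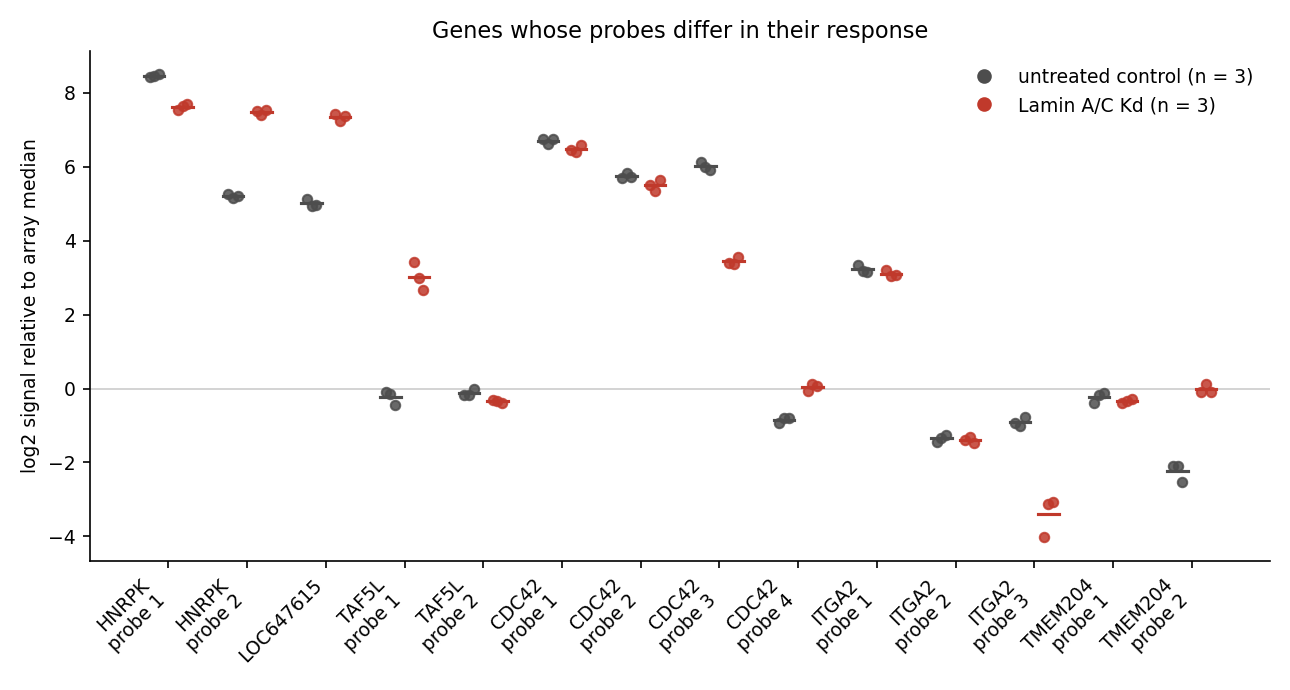
Log2 signal relative to the array median (y axis) on each control (grey) and Lamin A/C Kd (red) array for each tested probe of 6 genes, brightest probe first; bars are means of 3 arrays. The HNRPK probes move in opposite directions, and 1 TAF5L probe rises by 3.26 while the other differs by -0.21.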

How the data were processed

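RNA of 3 untreated and 3 Lamin A/C Kd samples of DLD1 cells was hybridised in a single colour (Cy3), 1 array per sample. The authors deposited Agilent Feature Extraction files with the background-subtracted processed intensity of each spot, and a table of log2 values after their 50th percentile shift. Per the labels the software was version 10.5, and per the file headers 10.7.3.1. From the intensity, control spots and outlier spots were left out, log2 values were shifted by each array's median, and spots of a probe were averaged. Probes detected throughout either group were kept (33131 probes, 21868 gene names). limma 3.58.1 in R 4.3.3 compared the 6 arrays without covariates, with Benjamini-Hochberg adjustment over all probes, and each gene took its brightest probe. "Rose" and "fell" mean an adjusted p under 0.05. The contrast of the knock-downs used all 9 arrays. The script was tested on simulated data. Precision is limited by having 3 arrays in each group.

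Named genes were the lamins, SMC1A and AKR1C1, the 15 largest rises and falls, the 5 largest lower limits each way, genes with primers in the study, and up to 6 passing members per list and direction. Others were chosen after their values were seen. The members and the 40 lists were chosen with earlier results of these data known. Older symbols were updated through RefSeq (19749 of 31033 names matched), and some genes that the rule names are not reported here. A fold given as "at least" sets the bright group against the lowest detected signal, or the probe's own where higher, on the dim group's arrays. Such probes were kept only through the bright group, so their p-values are not independent of the filter. Alternatives changed the shift, background correction, filter, arrays, weights, block and probe summary.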

Additional observations from a re-analysis of the deposited data

How the results depend on the processing

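Every alternative kept the direction of LMNA, which ranged from -3.90 to -3.75 when 1 array was left out. Leaving out 1 array gave between 833 and 1216 rises and between 1288 and 2492 falls at the adjusted threshold, and between 202 and 224 rises and 264 and 327 falls at 2-fold. Rises at the adjusted threshold numbered 2513 after the 75th percentile shift, 819 with no detection filter and 692 in the 9-array fit, and falls numbered 4636 after normexp correction, 1485 with no filter and 1261 in the 9-array fit. At 2-fold there were 49 rises and 182 falls after normexp correction and 343 rises with no filter, and a 1.5-fold criterion gave 802 and 1329. The cause of these shifts was not tested. With the set number as a replicate block, 1157 genes rose and 2055 fell, and 209 rose and 287 fell at 2-fold. Deviations of samples with the same set number correlated at 0.05, -0.01 and -0.01. Whether samples with the same set number were handled together was not tested. Of 319 named genes that passed, 315 kept their direction and 157 passed in all alternatives. Of 1280 counts of list members that rose or fell, 332 moved by over 1.5 times. The reversals came from averaging probes, which gave HNRPK 0.72, TMEM204 1.05, RECK 0.25 (brightest probe -0.60), KRT80 0.17 (-1.12) and DNMT3A -0.12 (0.41), and from the authors' table, which gave TMEM204 0.72. The knock-downs differed at 3392 genes, and at 4207 without Lamin B2 Kd replicate 3, and of 325 named genes 54 gained and 4 lost that call. Signal near background limits what can be said of genes below about -2.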

Other observations

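Among glycolysis and hypoxia genes, 9 of 38 fell (23.7%, beside 12.8% of all genes) and 4 rose, with 3 to 11 falls and 1 to 7 rises over the alternatives. The 3 falls came without control replicate 3 and with all 9 arrays fitted, and 1 rise was left without control replicate 1 or 2. CA9, a carbonic anhydrase induced by hypoxia, was at least 1.23-fold lower, since no knock-down array read it clear of background. Its probe was kept only through the control arrays. PFKL fell by 0.79, LDHA by 0.44 and HIF1A by 0.43. Of 31 sterol synthesis genes 3 rose against control (9.68%, beside 7.35%), TM7SF2 (0.99) among them. Between the knock-downs 13 of the 31 were higher in Lamin A/C Kd and none was lower, beside 11.2% and 4.28% of all genes. Without Lamin B2 Kd replicate 3, 11 were higher and 1 was lower. The median of this list against control was 0.04 for Lamin A/C Kd, beside -0.04 over all genes. For Lamin B2 Kd against the same controls it was -0.50, beside -0.15 over all genes. By these medians it was the Lamin B2 Kd arrays that lay further from control.

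Of 27 cytokine and NF-kB genes 5 rose and 5 fell (18.5% each way, beside 7.35% and 12.8% of all genes). CXCL8, listed as IL8, rose by 0.73, CXCL2 by 0.85 and TNFAIP3, a brake on NF-kB, by 0.71, while CSF2 fell by 1.32, CCL2 by 1.05, LIF by 0.85 and IL32 by 0.72. Of 37 regulators of apoptosis 6 rose (16.2%, beside 7.35% of all genes), with a median of -0.02. The 4 that fell were 10.8% of the list, below the 12.8% of all genes. Over the alternatives there were 3 to 9 rises and 2 to 12 falls. BIK (0.80), TNFRSF10B (0.78), BMF (0.75) and BAX (0.63) rose, and APAF1 fell by 1.18 and MCL1 by 0.59. Leaving out control replicate 3 gave 2 falls, as did leaving out replicate 1 of Lamin A/C Kd.

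Of 29 colon epithelial genes 4 rose (13.8%, beside 7.35% of all genes) and 5 fell (17.2%, beside 12.8%), with a median of -0.02. CEACAM6 rose by 1.06, SPINK4 by 0.55, CDH17 by 0.38 and TFF3 by 0.30, and TFF2, CA2, MUC1, TFF1 and AGR2 fell by 0.73, 0.68, 0.51, 0.42 and 0.36. Without any 1 of the 6 arrays there were 1 or 2 rises, and without control replicate 3 there were 2 falls.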
